A study of Mus musculus with 18 samples.

Results

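Nerve terminals release transmitter through a set of proteins that tether, prime and fuse synaptic vesicles, and the transcripts of that set were followed here after a stroke in mouse brain. The rule that defines the set uses gene names alone and no measured value, but it was chosen with earlier results of these data known. It holds every gene whose symbol begins with Syt, Stx, Stxbp, Vamp, Cplx, Rims or Rab3 followed by a digit or a letter a to d, together with Syn1 to Syn3, Snap23, Snap25, Snap47, Sv2a to Sv2c, Syp, Unc13a to Unc13c, Bsn and Pclo. The rule found 86 genes among 34921 gene entries. Of these, 50 were assigned presynaptic roles, all 17 synaptotagmins among them, and 18 are widely expressed SNAREs and their partners. Another 5 are syntaxins of the endoplasmic reticulum and Golgi, and 12 are Rab30 to Rab39b, caught by spelling alone. The remaining member, Vamp9, was given no role. The label is used here for the 50 genes assigned presynaptic roles. Whether each of these, or any other member, acts in vesicle release was not tested. Counts are given with and without the Rab30 to Rab39b genes.

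The tissue came from 9-week-old male C57BL/6 mice with a photothrombotic stroke, in which a light-activated dye clots the vessels beneath a laser spot. Rose bengal at 100 mg/kg was injected into the peritoneum 5 min before 15 min of illumination (532 nm, 40 mW) through a fiber centred 2 mm right of bregma. There were 6 groups of 3 libraries of total RNA from micro-punches. Punches of the right-side lesion were taken 4 h, 1 day, 3 days and 10 days after stroke. The others were a group of left-side punches called contralateral left here, and the matching right side of sham mice, called sham right. The protocol takes the left-side punches at random from the mice with a stroke, whereas their titles and disease state read sham and give no time. Whether a left-side punch came from an animal that also gave a right-side library is not stated. The sham group and each time have 3 animals, and the labels do not say which steps sham mice went through. Sham right was the control at each time and of contralateral left, so these comparisons share their control libraries.

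As background, a vesicle fuses when the vesicle SNARE synaptobrevin (Vamp1, Vamp2) zippers with syntaxin (Stx1a) and SNAP-25 (Snap25) of the plasma membrane. Munc13 proteins (Unc13a to Unc13c) open syntaxin and prime the vesicle, complexins clamp and assist the assembled complex, and synaptotagmin-1 (Syt1) senses calcium. RIM, Bassoon and Piccolo build the active zone where this happens, and Rab3 brings vesicles to it. Cells other than neurons use related SNAREs, such as SNAP-23 (Snap23), VAMP8 and VAMP3, for secretion, membrane recycling and the fusion of endosomes.

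The authors deposited FPKM values, which divide fragments by transcript length and library total, so levels of different genes are compared per length. Log2 fold changes were taken after adding 1 to each FPKM, and they are smaller than the true change where FPKM is low. Genes with at least 1 FPKM in 3 or more libraries were tested (14016 of all, 77 of the 86 members). Calls were made in limma where the Benjamini-Hochberg p, adjusted over the 14016 genes, was under 0.05. Unless another setting or a left-out library is named, a call is one of the fit of all 18 libraries, the main fit. An unadjusted p under 0.05, counted for some lists, was reached by 16.5% of all genes tested at 4 h, 8.58% at 1 day, 16.3% at 3 days and 19.4% at 10 days. The 9 members below the filter were Cplx4, Syt8, Syt15, Syn3, Stx11, Stx19, Vamp5, Vamp9 and Rab38. Read totals were not used here, so depth is unknown. Precision is judged by the spread between libraries within groups, which limma pooled for each gene over all 6 groups of 3.

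The libraries held neuronal tissue. The 12 neuron markers, all of which passed the filter, summed to 923 to 977 FPKM in sham right. The share of summed FPKM on mitochondrial genes ran from 24.4% to 44.6%, highest in library 5 of 10 days. This library also had the lowest mean correlation across genes with the others of its group, 0.933. Contralateral left 1 and 3 stood apart from left 5, as given with that comparison. Counts and medians at 10 days and in contralateral left are also given without library 5 of each.

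The machinery's leading transcripts were among the more abundant in the punches. In sham right, Snap25 had the highest level of all members at 422 ± 28.2 FPKM (SD, n = 3, as for all group means). It was followed by Cplx1 at 219 ± 14.0 FPKM, Cplx2 at 173 ± 13.4 FPKM, Syt1 at 166 ± 15.9 FPKM and Syp, the vesicle membrane protein synaptophysin, at 155 ± 15.1 FPKM. Vamp2 at 132 ± 16.8 FPKM and Rab3a at 122 ± 8.53 FPKM were next, and the ranges of Cplx2 to Rab3a overlapped from neighbour to neighbour. Altogether 7 members averaged 100 FPKM or more, 40 averaged 10 FPKM or more, and 12 averaged under 1 FPKM. Within families the levels were uneven. Vamp1 averaged 20.5 ± 5.56 FPKM and Stx1a 57.1 ± 11.0 FPKM, while SNAP-23, the counterpart of SNAP-25 outside neurons, averaged 2.51 ± 0.262 FPKM.

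The transcripts of the core fusion complex gave no call in the lesioned tissue. Neither Snap25, Stx1a, Vamp1 nor Vamp2 passed the test at any of the 4 times by limma, and none of them had an unadjusted p under 0.05. Snap25 had 436, 441 and 390.0 FPKM in the sham right libraries, 501, 511 and 446 FPKM at 4 h, 500.0, 501 and 413 FPKM at 1 day, 428, 489 and 349 FPKM at 3 days and 398, 454 and 576 FPKM at 10 days. The 4 h libraries all lay above the sham range, and the other times overlapped it. For Snap25 the log2 fold change was 0.20 at 4 h (95% interval -0.17 to 0.57), 0.15 at 1 day (-0.22 to 0.53), -0.01 at 3 days (-0.38 to 0.36) and 0.16 at 10 days (-0.21 to 0.53).

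Vamp2 had 150.2, 129 and 117 FPKM in the sham right libraries, 124, 135 and 143 FPKM at 4 h, 135, 125 and 139 FPKM at 1 day, 118, 128 and 131 FPKM at 3 days and 114, 119 and 122 FPKM at 10 days. All 4 times overlapped sham right. The log2 fold change of Vamp2 was farthest from 0 at 10 days, at -0.15 (95% interval -0.42 to 0.12). Stx1a had 64.8, 62.0 and 44.5 FPKM in the sham right libraries, 61.6, 64.5 and 57.7 FPKM at 4 h, 72.7, 67.0 and 61.8 FPKM at 1 day, 58.7, 71.1 and 62.5 FPKM at 3 days and 53.6, 55.9 and 20.9 FPKM at 10 days. Only 10 day library 5 lay below the sham range, at less than every other library of Stx1a. Vamp1, the other synaptobrevin, had 16.7, 15.6 and 11.3 FPKM at 10 days and 17.3, 17.4 and 26.9 FPKM in sham right, at a log2 fold change of -0.46 (adjusted p = 0.274).

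**Figure D1:**
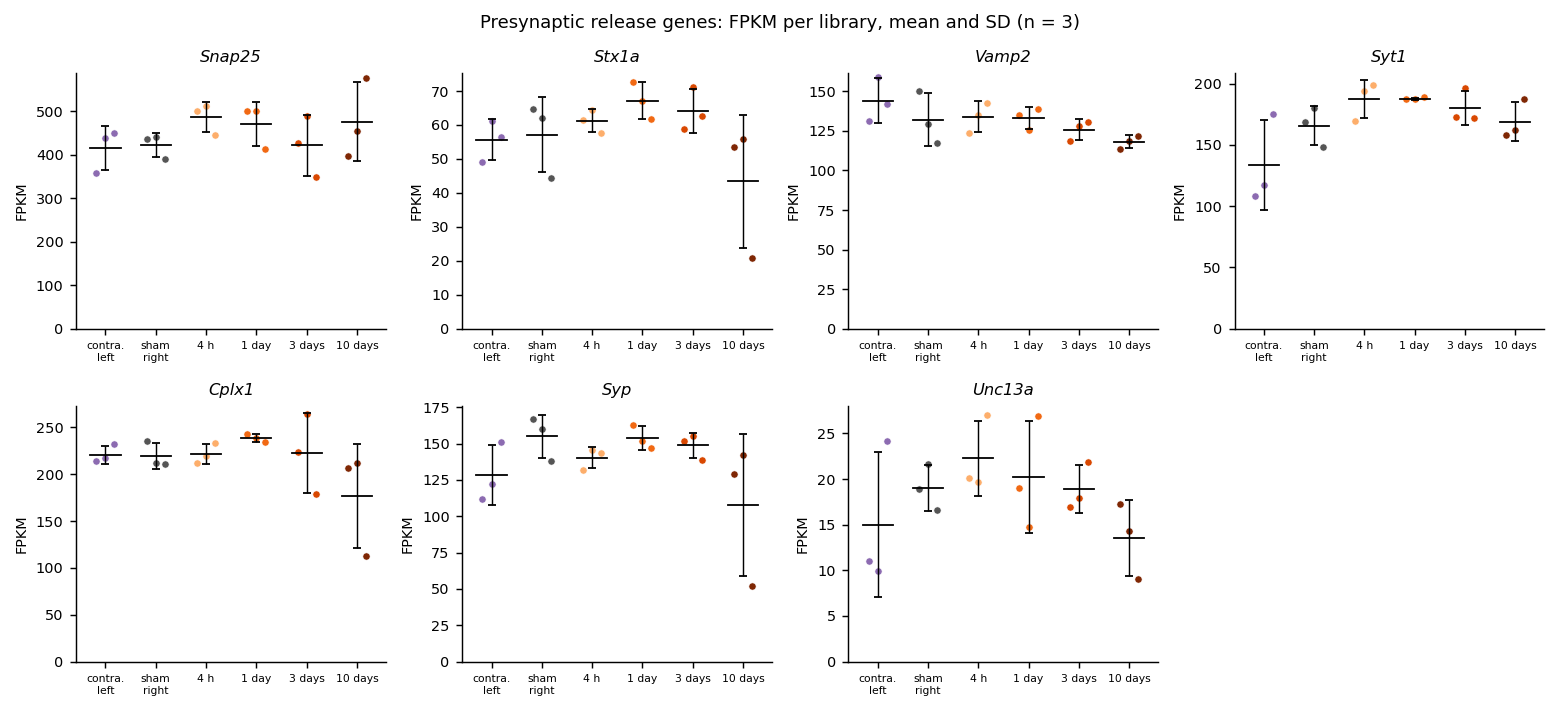
FPKM of 7 presynaptic release genes in each of the 18 libraries (points; vertical axis FPKM, starting at 0) by group (horizontal axis), with the group mean (line) and SD (bar, n = 3). Values at 4 h to 3 days lie near those of sham right, Stx1a, Cplx1 and Syp drop to 20.9, 112 and 51.8 FPKM in 1 library at 10 days, and Snap25 does not drop there.

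No synaptotagmin was called at a single time in the main limma fit, while the F-test over the 4 times together called Syt17 (adjusted p = 0.0360) and Syt6 (0.0482). Of the 15 tested, 2 had an unadjusted p under 0.05 at 4 h (against 16.5% of all genes), 0 at 1 day (8.58%), 0 at 3 days (16.3%) and 4 at 10 days (19.4%). Syt1 had 168, 179.9 and 148 FPKM in the sham right libraries, 169, 194 and 199 FPKM at 4 h, 187, 187 and 189 FPKM at 1 day, 173, 196 and 172 FPKM at 3 days and 158, 162 and 187 FPKM at 10 days. Syt1 libraries at 1 day all lay above the sham range, at a log2 fold change of 0.18 (95% interval -0.17 to 0.53). Syt2, the fast calcium sensor of hindbrain and inhibitory terminals, had 7.44, 6.72 and 4.06 FPKM at 10 days and 7.50, 6.05 and 10.11 FPKM in sham right, and the groups overlapped. The 2 lowest unadjusted p-values at 4 h belonged to Syt4, at 42.0, 48.1 and 40.4 FPKM at 4 h and 60.3, 62.3 and 57.1 FPKM in sham right, and Syt17, at 2.02, 3.205 and 2.61 FPKM at 4 h and 4.41, 5.65 and 4.54 FPKM in sham right. Neither group overlapped its control, but the log2 fold changes of -0.46 and -0.71 were not called (adjusted p = 0.0723 and 0.0767). Both genes were called lower at 4 h without left 5 and 10 day library 5, and Syt17 also in a fit of the 2 groups alone.

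Among the 10 tested regulators of SNARE assembly, Unc13c was called at every time and no other was called. Cplx1, the most abundant complexin, had 206, 212 and 112 FPKM at 10 days and 235, 212 and 211 FPKM in sham right. Cplx2 had 153, 152 and 96.7 FPKM at 10 days and 183, 179 and 158 FPKM in sham right. The Cplx2 groups did not overlap, and its log2 fold change of -0.40 was not called (adjusted p = 0.210).

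Unc13c, which encodes Munc13-3, the Munc13 protein best known from the mouse cerebellum, fell at all 4 times, the largest fall among the members at each. Unc13c had 6.04, 6.13 and 10.4 FPKM in the sham right libraries, 2.64, 2.19 and 4.84 FPKM at 4 h, 3.21, 2.19 and 3.04 FPKM at 1 day, 2.19, 2.29 and 1.65 FPKM at 3 days and 3.37, 2.69 and 4.11 FPKM at 10 days. Every stroke library lay below every sham right library, and sham right 3 stood above the other two. In limma the log2 fold change of Unc13c (chr9:73479422-73968966, minus strand, GRCm38) was -1.03 at 4 h (SE 0.23 here and at each time; adjusted p = 0.0308), -1.13 at 1 day (0.0214), -1.46 at 3 days (0.000533) and -0.93 at 10 days (0.0186). In bulk tissue, fewer cells of a type and less RNA per cell cannot be told apart. Without sham right 3 the adjusted p was 0.178 at 4 h, 0.159 at 1 day, 0.00425 at 3 days and 0.12 at 10 days, so that only the fall at 3 days was still called. The 4 h call was also lost without sham right 2 or without 4 h library 2 or 3. Leaving out 1 day library 3 or 4 ended the 1 day call, and leaving out 10 day library 2 ended the 10 day call. The call was lost in 8 of 14 alternatives at 4 h, 5 at 1 day, 0 at 3 days and 4 at 10 days. Without a filter on low values Unc13c was called at 3 days only. A block by replicate number ended the calls at 4 h and 1 day. A fit of the 2 groups alone ended those at 4 h and 10 days. The left-side punches did not share the low level, with 8.34, 5.52 and 6.65 FPKM, but with them as the control the 4 h call was lost.

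Its near relative Unc13a, the main Munc13 of forebrain glutamatergic terminals, had 16.9, 17.9 and 21.9 FPKM at 3 days and 18.9, 21.6 and 16.6 FPKM in sham right. Unc13b had 2.43, 1.79 and 3.12 FPKM at 3 days and 1.88, 2.34 and 1.97 FPKM in sham right. Both overlapped their controls at 3 days. Expressed as a percentage of Unc13a FPKM in the same library, Unc13c averaged 41.1% ± 19.1 in sham right, 14.1% ± 3.5 at 4 h, 14.4% ± 2.84 at 1 day, 11.1% ± 3.09 at 3 days and 27.8% ± 15.1 at 10 days. Unc13a shares 495 exon bases with Colgalt1 on the other strand, whereas Unc13c shares none with another annotated gene.

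The 6 active zone genes gave no call at any time by limma, with an unadjusted p under 0.05 for 0 at 4 h, 0 at 1 day, 1 at 3 days and 2 at 10 days, where all genes reached 16.5%, 8.58%, 16.3% and 19.4%. Bsn, which encodes Bassoon, had 19.9, 18.1 and 21.7 FPKM at 3 days and 24.1, 23.8 and 17.9 FPKM in sham right. Pclo, which encodes Piccolo, had 9.08, 8.20 and 9.54 FPKM at 3 days and 9.49, 12.1 and 9.41 FPKM in sham right. Both overlapped their controls. Rims1, the main RIM scaffold, had 15.8, 19.7 and 17.2 FPKM at 3 days and 24.6, 22.7 and 20.4 FPKM in sham right, without overlap, at a log2 fold change of -0.35 that was not called (adjusted p = 0.195).

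Of the 4 Rab3 genes, which encode vesicle-tethering GTPases, Rab3c fell at 10 days. Rab3c had 43.1, 45.3 and 46.1 FPKM in the sham right libraries, 31.6, 41.1 and 37.0 FPKM at 4 h, 34.7, 35.1 and 34.7 FPKM at 1 day, 31.0, 34.1 and 36.7 FPKM at 3 days and 31.8, 33.0 and 31.4 FPKM at 10 days. Every stroke library lay below the sham range and the 10 day libraries lay close together. The log2 fold change of Rab3c (chr13:110054187-110280996, minus strand) at 10 days was -0.47 ± 0.13 (SE; adjusted p = 0.0404, limma), against -0.29, -0.35 and -0.39 at 4 h, 1 day and 3 days, which were not called. This call was lost under 11 of 14 alternatives, each of the 6 fits without 1 library among them. The left-side punches also had low Rab3c, at 31.5, 26.1 and 38.0 FPKM, and with them as the control the 10 day difference was 0.02 on the log2 scale (adjusted p = 0.936). Rab3a, the most abundant of the family, had 109.5, 115 and 58.7 FPKM at 10 days and 129.5, 123 and 113 FPKM in sham right, and the groups overlapped.

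The 6 tested genes of the vesicle membrane and the synapsins gave no call by limma, and at most 1 of them had an unadjusted p under 0.05 at any time. Syp had 167, 159.8 and 138 FPKM in the sham right libraries, 132, 145 and 144 FPKM at 4 h, 163, 151 and 147 FPKM at 1 day, 152, 155 and 139 FPKM at 3 days and 129, 142 and 51.8 FPKM at 10 days. Of all 18 libraries, 10 day library 5 had the lowest Syp. Syn1, which encodes the synapsin that clusters reserve vesicles, had 73.4, 67.1 and 79.8 FPKM at 10 days and 96.5, 91.3 and 78.3 FPKM in sham right, and Syn2 had 36.5, 37.0 and 28.7 FPKM at 10 days and 24.3, 46.9 and 42.3 FPKM in sham right. Sv2a, which encodes the vesicle glycoprotein bound by levetiracetam, had 61.0, 57.9 and 35.1 FPKM at 10 days and 63.1, 65.8 and 63.5 FPKM in sham right. Sv2b had 75.1, 90.7 and 70.5 FPKM at 4 h and 59.6, 64.6 and 50.4 FPKM in sham right, without overlap, at a log2 fold change of 0.43 that was not called (adjusted p = 0.236). Sv2c, the low-level form, had 3.71, 2.82 and 3.68 FPKM at 4 h and 2.15, 3.03 and 2.73 FPKM in sham right.

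As a group, the 46 tested presynaptic genes centred on the sham level early and lay below it at 10 days. Their median log2 fold change was 0.07 at 4 h, 0.04 at 1 day, -0.05 at 3 days and -0.31 at 10 days, against 0.01, 0.03, 0.08 and -0.07 over all genes tested. At 10 days, 43 of the 46 lay below 0, while 2 were called lower and 0 higher. At an unadjusted p under 0.05 there were 9 lower and 1 higher, against 8.63% and 10.7% of all genes tested. Among the 12 neuron markers, none was called at 10 days, 6 had an unadjusted p under 0.05, all below sham, against 8.63% of all genes in that direction, and the median was -0.34. Their summed level was 586 to 854 FPKM at 10 days, against 923 to 977 FPKM in sham right. Without 10 day library 5 the presynaptic median was -0.17, against -0.00012 over all genes, 41 of the 46 lay below 0, and 1 was called lower and 0 higher. That fit gave 4 lower and 0 higher at an unadjusted p under 0.05, against 2.98% and 9.94% of all genes. The neuron markers then had a median of -0.20, with 0 of 12 called or at an unadjusted p under 0.05, and summed to 783 and 854 FPKM in the libraries kept. The part of neuron content in the difference of the presynaptic genes was not tested.

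The 10 day shift was uneven between libraries. The median difference of the 46 genes from the sham right mean was -0.15 in 10 day library 1, -0.15 in library 2 and -0.44 in library 5, and 43, 39 and 38 of them lay below that mean. Over all genes the same medians were 0.01, -0.0042 and -0.18. Library 5 was not low throughout, since its Snap25 of 576 FPKM was the highest of the 18 libraries while its Stx1a of 20.9 FPKM and Syp of 51.8 FPKM were the lowest. With each library rescaled by its median ratio to all libraries, the median of all 77 members at 10 days was -0.10, against 0.00 over all genes, compared with -0.19 and -0.07 on the deposited scale.

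**Figure D2:**
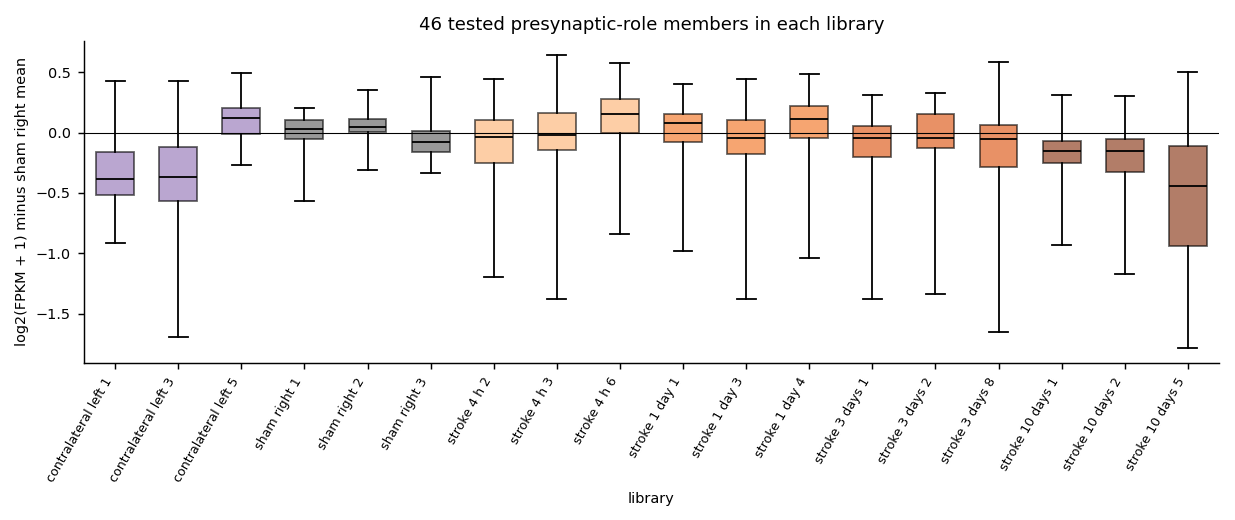
Differences of the 46 tested presynaptic genes from their sham right mean in each library (vertical axis, log2(FPKM + 1) units; boxes span the middle 50% of genes, lines inside are medians, whiskers reach the lowest and highest gene). Contralateral left 1 and 3 have medians of -0.38 and -0.36 and 10 day library 5 has -0.44, below the other libraries, and contralateral left 5 has 0.12.

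Counted over all members, few were called at the early times. At 4 h, 1 of 77 members was called lower (1.3%, against 0.863% of all genes tested) and 1 higher (1.3%, against 1.32%). At 1 day, 1 was called lower (1.3%, against 0.278%) and 0 higher (against 0.899%), with 1 higher at an unadjusted p under 0.05 (against 5.06%). At 3 days, 1 was called lower (1.3%, against 0.457%) and 4 higher (5.19%, against 6.91%). At 10 days, 2 were called lower (2.6%, against 0.92%) and 6 higher (7.79%, against 6.21%). Without 10 day library 5 there were 1 lower (1.3%, against 0.4%) and 4 higher (5.19%, against 5.72%). Without the Rab30 to Rab39b genes the 66 remaining members gave 1, 0, 2 and 4 calls higher and 1, 1, 1 and 2 lower at the 4 times. The share called higher was near or under the background at each time, and the counts of 1 and 2 called lower rest on Unc13c at every time and on Rab3c at 10 days.

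The F-test over the 4 times against sham right called 11 of 77 members (14.3%), against 13.5% of all genes tested. In order of p these were Rab32, Unc13c, Vamp8, Snap23, Vamp3, Rab31, Stx6, Rab36, Stxbp3, Syt17 and Syt6.

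**Figure D3:**
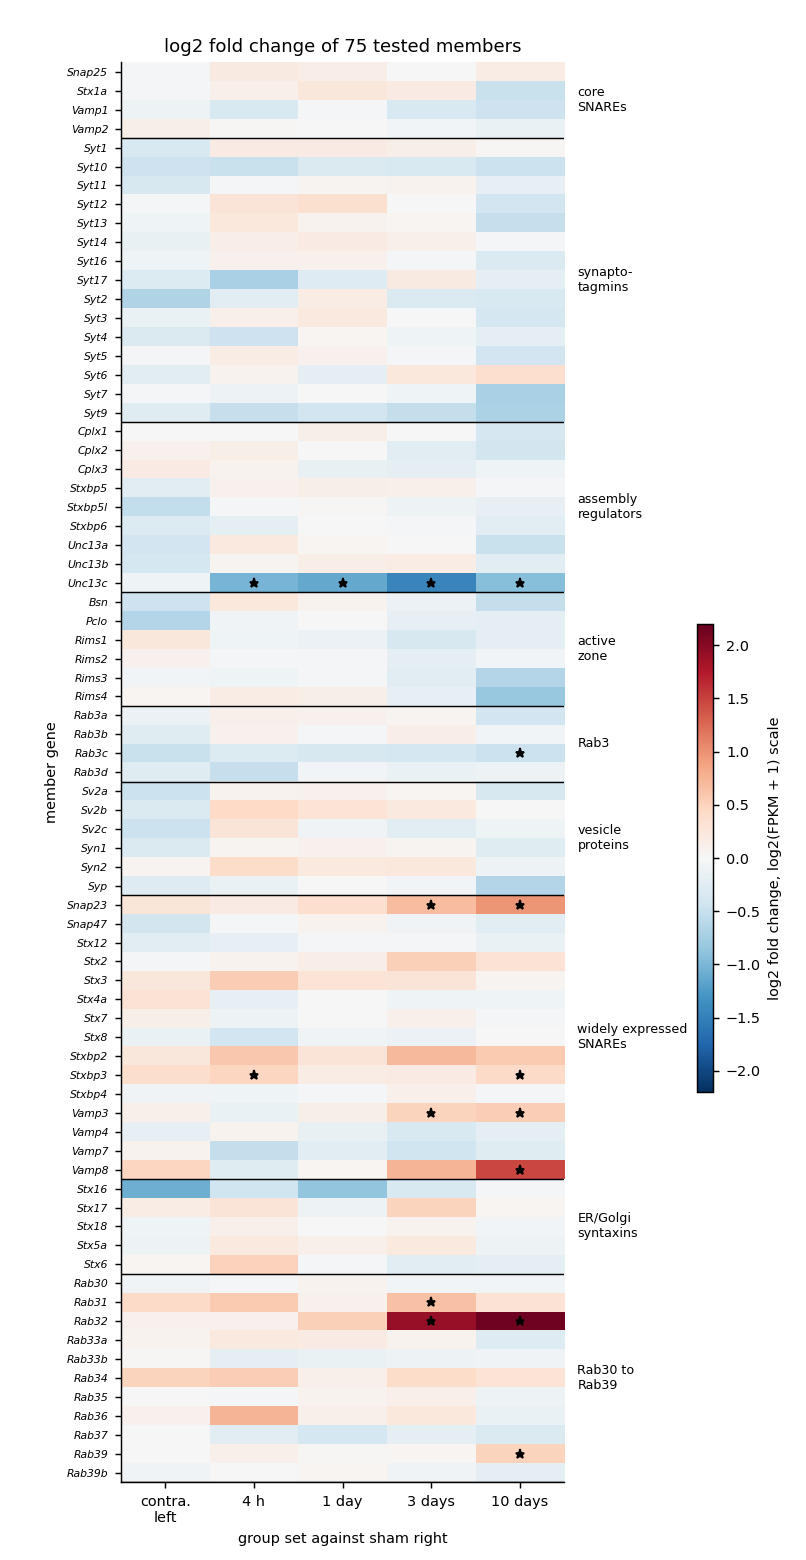
Log2 fold change of 75 of the 77 tested members (vertical axis, grouped by role) in contralateral left and at 4 times after stroke, each against sham right (horizontal axis); colour gives log2(FPKM + 1) units and stars mark calls at a limma adjusted p under 0.05. Calls higher lie in the rows of the widely expressed SNAREs and of Rab30 to Rab39, up to 2.13 for Rab32 at 10 days, and calls lower are Unc13c and Rab3c.

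In the main fit, all calls higher were outside the presynaptic roles. Sv2b was called higher at 4 h with contralateral left as the control, and also without left 5 and 10 day library 5. Syt6 was called higher at 3 and 10 days with contralateral left as the control, and at 10 days with both controls together. Rims1 was called higher in contralateral left without left 5 (0.43, adjusted p = 0.0322, limma). Of the 15 tested widely expressed SNAREs and partners, 1, 0, 2 and 4 were called higher at the 4 times in the main fit, and none lower. Over all genes tested, 1.32% were called higher at 4 h, 0.899% at 1 day, 6.91% at 3 days and 6.21% at 10 days. The median log2 fold change of these 15 genes was -0.09, 0.04, 0.11 and 0.00 at the 4 times. Without 10 day library 5, 2 of the 15 were called higher at 10 days (13.3%, against 5.72% of all genes) and 0 lower. Their median was then 0.10, against -0.00012 over all genes, with 10 genes above 0 and 5 below. The calls concerned single genes, and the median of the list stayed between -0.09 and 0.11.

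Snap23, which encodes the SNAP-25 relative used for secretion and membrane fusion outside neurons, rose at 3 days and 10 days. Snap23 had 2.22, 2.60 and 2.72 FPKM in the sham right libraries, 2.87, 2.90 and 3.18 FPKM at 4 h, 3.15, 3.37 and 4.07 FPKM at 1 day, 5.29, 3.36 and 5.52 FPKM at 3 days and 5.10, 4.66 and 8.29 FPKM at 10 days. All libraries at all 4 times lay above the sham range. The log2 fold change of Snap23 (chr2:120567671-120601255, plus strand) was 0.68 ± 0.18 at 3 days (SE; adjusted p = 0.0235, limma) and 0.97 at 10 days (0.00157). The 10 day call held in all 14 alternatives run and the 3 day call in 5 of 14. Among those that ended the 3 day call were each of the 3 fits without a sham right library and the fits without 3 day library 1 or 8, and over all alternatives the adjusted p reached 0.159.

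Vamp8, which encodes a SNARE of late endosomes and of secretion in blood cells, rose at 10 days. Vamp8 had 2.88, 2.77 and 3.77 FPKM in the sham right libraries, 2.70, 2.63 and 2.02 FPKM at 4 h, 3.52, 4.15 and 2.26 FPKM at 1 day, 7.14, 5.81 and 4.87 FPKM at 3 days and 10.07, 11.1 and 10.11 FPKM at 10 days. The 3 day libraries already lay above the sham range, at a log2 fold change of 0.74 that was not called (adjusted p = 0.211). At 10 days the log2 fold change of Vamp8 (chr6:72385223-72390703, minus strand) was 1.47 ± 0.30 (SE; adjusted p = 0.00426, limma). Left-side libraries had 7.25, 7.09 and 1.83 FPKM, so left 1 and 3 lay between the sham right and the 10 day libraries, and against all 3 left-side libraries the 10 day difference was 1.00 with an adjusted p of 0.0541.

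Vamp3, which encodes cellubrevin, the SNARE of recycling endosomes, rose at 3 days and 10 days. Vamp3 had 10.07, 8.74 and 11.0 FPKM in the sham right libraries, 9.96, 8.52 and 8.24 FPKM at 4 h, 10.07, 11.2 and 11.7 FPKM at 1 day, 14.5, 13.3 and 15.0 FPKM at 3 days and 14.1, 14.4 and 16.0 FPKM at 10 days. At 3 and 10 days all libraries lay above the sham range. Vamp3 (chr4:151047300-151057963, minus strand) had a log2 fold change of 0.49 ± 0.14 at 3 days (SE; adjusted p = 0.0392, limma) and 0.54 at 10 days (0.0213). The call was lost in 9 of 14 alternatives at 3 days and in 5 of 14 at 10 days, leaving out sham right 1 or 2 among them at both times, any 1 of the 3 day libraries at 3 days and library 5 at 10 days.

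Stxbp3, which encodes Munc18c, the partner of syntaxin-4 in glucose transporter traffic, rose at 4 h and 10 days. Stxbp3 had 4.32, 4.34 and 4.73 FPKM in the sham right libraries, 6.67, 5.62 and 7.68 FPKM at 4 h, 4.72, 5.21 and 5.47 FPKM at 1 day, 5.62, 4.93 and 4.96 FPKM at 3 days and 6.23, 5.82 and 7.04 FPKM at 10 days. Stxbp3 (chr3:108793176-108840526, minus strand) had a log2 fold change of 0.48 ± 0.11 at 4 h (SE; adjusted p = 0.0415, limma) and 0.43 at 10 days (0.0295). It was called in 3 of 14 alternatives at 4 h and in 4 of 14 at 10 days. Both calls were lost without any 1 of the sham right libraries, the 4 h call also without 4 h library 2 or 6, and the 10 day call without 10 day library 1 or 5. Left-side punches had 5.69, 6.35 and 6.27 FPKM, which overlapped the 4 h and 10 day libraries and lay above sham right.

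Of the fixed panel, 3 further genes of this list gave no call. Stxbp2, which encodes Munc18-2 of platelets and mast cells, had 4.66, 3.63 and 5.82 FPKM at 3 days and 2.27, 2.46 and 2.55 FPKM in sham right, without overlap, at a log2 fold change of 0.72 (adjusted p = 0.131). Snap47, the most abundant member outside the presynaptic roles, had 81.2, 83.5 and 57.1 FPKM at 10 days and 84.5, 92.2 and 80.9 FPKM in sham right. Stx11, a syntaxin of immune cell granule release, was below the filter, with 0.391, 0.245 and 0.760 FPKM at 3 days and 0.118, 0.0417 and 0.127 FPKM in sham right. The 5 syntaxins of the endoplasmic reticulum and Golgi gave no call at any time by limma, and 1 of them, Stx6 at 4 h, had an unadjusted p under 0.05.

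Rab32, which encodes a GTPase of mitochondria and lysosome-related organelles, had the largest rise of all members. Rab32 had 0.371, 0.677 and 0.762 FPKM in the sham right libraries, 0.763, 0.715 and 0.633 FPKM at 4 h, 1.17, 1.26 and 1.45 FPKM at 1 day, 6.72, 3.72 and 4.96 FPKM at 3 days and 6.10, 4.12 and 8.39 FPKM at 10 days. Every 1 day, 3 day and 10 day library lay above the sham range, and the 3 and 10 day libraries lay above every 1 day library. The log2 fold change of Rab32 (chr10:10545002-10558265, minus strand) was 1.92 ± 0.19 at 3 days (SE; adjusted p = 6.26e-06, limma) and 2.13 at 10 days (1.21e-06). Both calls held in all 14 alternatives run. Rab32 reached 1 FPKM in 9 libraries, those of 1, 3 and 10 days. It therefore passed the filter only through groups in which it is high.

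Rab31, which encodes a GTPase of traffic between Golgi and endosomes, rose at 3 days. Rab31 had 21.2, 19.8 and 22.3 FPKM in the sham right libraries, 29.2, 28.6 and 38.8 FPKM at 4 h, 21.4, 21.1 and 25.1 FPKM at 1 day, 34.4, 30.3 and 36.6 FPKM at 3 days and 31.3, 28.7 and 20.6 FPKM at 10 days. The 4 h and 3 day libraries lay above the sham range, and 1 day and 10 day libraries overlapped it. The log2 fold change of Rab31 (chr17:65651729-65772752, minus strand) at 3 days was 0.65 ± 0.15 (SE; adjusted p = 0.0128, limma), and at 4 h it was 0.57, which was not called (0.0654). The 3 day call was lost in 5 of 14 alternatives, without sham right 2, without 3 day library 1 or 8, and with the left-side punches in the control.

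Rab39, a little-studied GTPase of the same name series, was called higher at 10 days, with 1.21, 1.37 and 1.08 FPKM at 10 days and 0.705, 0.586 and 0.451 FPKM in sham right. It reached 1 FPKM in 3 libraries, those of 10 days, and so passed the filter through the group in which it is high. Its call, at a log2 fold change of 0.49 (adjusted p = 0.0450, limma), was lost in 9 of 14 alternatives, each fit without 1 library among them.

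**Figure D4:**
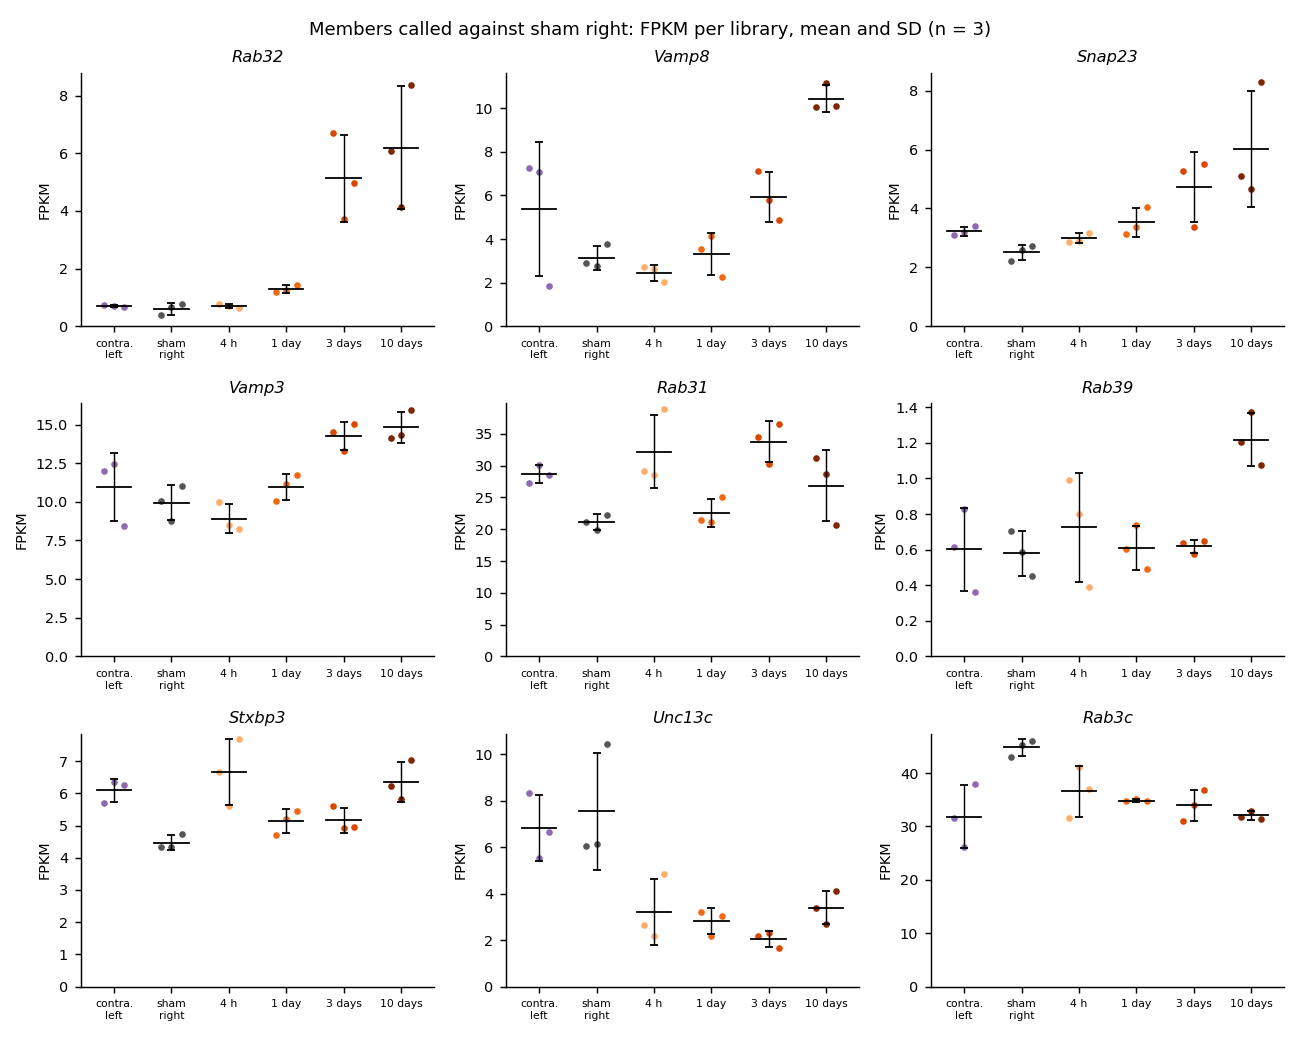
FPKM of the 9 members called at any time against sham right, in each of the 18 libraries (points; vertical axis FPKM, starting at 0) by group (horizontal axis), with the group mean (line) and SD (bar, n = 3). Rab32 reaches 3.72 to 8.39 FPKM at 3 and 10 days, Vamp8 reaches 10.07 to 11.1 FPKM at 10 days, and Unc13c lies at 1.65 to 4.84 FPKM after stroke, under its sham right range of 6.04 to 10.4 FPKM.

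Markers of microglia and macrophages were higher at 3 and 10 days, when Rab32, Snap23, Vamp3 and, at 10 days, Vamp8 were called. Of the 9 markers, 0 were called at 4 h, 1 at 1 day, 6 at 3 days and 6 at 10 days, all called ones higher. Without 10 day library 5, 7 of them were called higher at 10 days. Their summed level was 41.9 to 58.4 FPKM in sham right, 35.5 to 41 FPKM at 4 h, 48.3 to 59.4 FPKM at 1 day, 127 to 191 FPKM at 3 days and 184 to 309 FPKM at 10 days. In contralateral left they summed to 44.2 to 52.4 FPKM, within the sham right range, while Vamp8 had 7.25, 7.09 and 1.83 FPKM there. Snap23 lay above the sham range also at 4 h and 1 day, where it was not called. Choroid plexus markers summed to 146 to 271 FPKM in sham right, 1.63 to 582 FPKM at 4 h, 0.898 to 426 FPKM at 1 day, 1.03 to 222 FPKM at 3 days, 406 to 631 FPKM at 10 days and 381 to 542 FPKM in contralateral left. At 10 days and in contralateral left they lay above the sham right range in every library, left 5 with its Vamp8 of 1.83 FPKM included. Of 6 pericyte and fibroblast markers, 3 were called higher at 10 days and 0 at 3 days, and of 7 astrocyte markers, 2 were called higher at 3 days and 1 at 10 days. The part of these cells in the rise of the members was not tested.

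**Figure D5:**
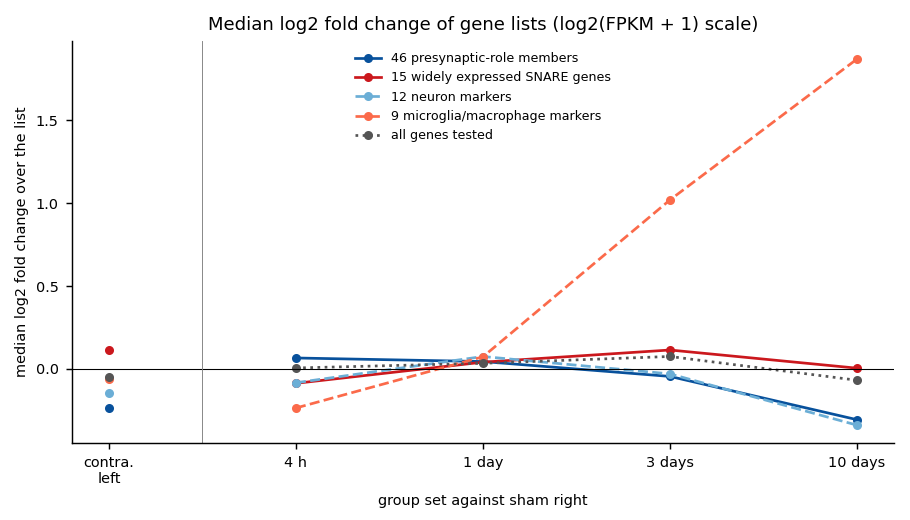
Median log2 fold change against sham right (vertical axis, log2(FPKM + 1) units) of 46 presynaptic genes, 15 widely expressed SNARE genes, 12 neuron markers, 9 microglia and macrophage markers and all 14016 genes tested, for contralateral left and 4 times after stroke (horizontal axis). At 10 days the presynaptic genes and neuron markers lie at -0.31 and -0.34, all genes at -0.07, and microglia and macrophage markers at 1.87, with library 5 included.

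The promoters of the 4 members whose changes were largest are shown so that the calls can be read beside the sequence around each RefSeq start. GENCODE, the source of the gene coordinates above, places the start elsewhere for Rab32, Vamp8 and Unc13c. The Unc13c window lies wholly outside the GENCODE span of the gene. They were taken from RefSeq (build GRCm38.p6), which gave an entry for 66 of the 86 members, and run 5′ to 3′ on the gene's strand with 250 bases before the start and 50 after it.
Rab32, chr10:10558158-10558457, minus strand: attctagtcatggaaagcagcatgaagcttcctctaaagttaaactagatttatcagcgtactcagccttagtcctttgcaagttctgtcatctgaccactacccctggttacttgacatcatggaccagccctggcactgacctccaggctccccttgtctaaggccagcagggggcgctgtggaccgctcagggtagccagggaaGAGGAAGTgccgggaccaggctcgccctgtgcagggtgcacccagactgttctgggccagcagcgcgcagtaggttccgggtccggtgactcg
Vamp8, chr6:72390618-72390917, minus strand: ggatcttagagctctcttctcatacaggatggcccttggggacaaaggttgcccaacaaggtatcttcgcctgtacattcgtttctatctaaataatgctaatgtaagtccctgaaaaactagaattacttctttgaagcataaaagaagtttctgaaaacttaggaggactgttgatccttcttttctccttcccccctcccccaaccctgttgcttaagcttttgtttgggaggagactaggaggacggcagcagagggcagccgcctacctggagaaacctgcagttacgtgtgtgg
Snap23, chr2:120567421-120567720, plus strand: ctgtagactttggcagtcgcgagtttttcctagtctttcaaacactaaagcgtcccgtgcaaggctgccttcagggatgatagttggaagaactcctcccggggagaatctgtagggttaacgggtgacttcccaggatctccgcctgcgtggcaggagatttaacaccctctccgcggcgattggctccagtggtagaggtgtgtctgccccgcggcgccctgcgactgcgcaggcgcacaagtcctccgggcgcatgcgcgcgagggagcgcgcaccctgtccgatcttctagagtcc
Unc13c, chr9:73968988-73969287, minus strand: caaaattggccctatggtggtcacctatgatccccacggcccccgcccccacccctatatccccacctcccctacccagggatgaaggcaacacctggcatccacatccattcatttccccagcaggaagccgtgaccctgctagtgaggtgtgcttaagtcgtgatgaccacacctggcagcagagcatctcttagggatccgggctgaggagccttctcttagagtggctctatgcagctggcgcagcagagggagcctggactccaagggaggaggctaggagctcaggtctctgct
Capitals mark letters that matched 1 of 3 short motifs searched on both strands: GAGGAAGT, a core bound by PU.1 and other ETS factors, TTCAGCACC, the left part of the neuronal silencer element RE1, and TGACGTCA, the cyclic AMP response element. The Rab32 window held GAGGAAGT beginning 43 bases before the RefSeq start, and the other 3 windows held none of the motifs. The GENCODE span of Rab32 reaches to 10558265, beyond the RefSeq start, and takes in this motif. GAGGAAGT occurs in 3.2% of all 32851 promoters of this length and in no other member's in that table. TTCAGCACC occurs in 0.371% of all promoters and, among members, in those of Syn1 and Unc13a. TGACGTCA occurs in 1.79% of all promoters and, among members, in those of Stxbp3 and Syn1. A match describes letters in the window and is not a binding site.

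Between successive times, 2 members moved. At 1 day against 4 h, 0 of 77 members were called (against 1.23% of all genes), with 4 higher and 5 lower at an unadjusted p under 0.05 (against 6.22% and 3.88%). At 3 days against 1 day, 2 of 77 were called higher (2.6%, against 5.22% of all genes in either direction). Rab32 differed by 1.39 ± 0.19 (log2, SE; adjusted p = 0.000298, limma) and Rab31 by 0.56 (0.0443). The Rab32 call held in all 12 alternatives run, and the Rab31 call was lost in 6 of 12, among them the fits without 1 day library 1 or 3 and without 3 day library 1 or 8. At 10 days against 3 days, 0 of 77 were called (against 2.02% of all genes), with 4 higher and 6 lower at an unadjusted p under 0.05 (against 4.03% and 13.1%).

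Snap23, Vamp8 and Vamp3 were small beside their neuronal relatives at every time. Snap23 FPKM was 0.598% ± 0.0948 of Snap25 FPKM in sham right, 0.618% ± 0.082 at 4 h, 0.762% ± 0.194 at 1 day, 1.17% ± 0.451 at 3 days and 1.25% ± 0.208 at 10 days. Vamp8 was 2.43% ± 0.693 of Vamp2 in sham right, 1.85% ± 0.393 at 4 h, 2.52% ± 0.847 at 1 day, 4.76% ± 1.17 at 3 days and 8.84% ± 0.543 at 10 days. Vamp3 was 7.63% ± 1.54 of Vamp2 in sham right and 12.5% ± 0.515 at 10 days. These ratios, taken within a library, reuse the values of the tests above and are given as a description. With 3 libraries against 3, an exact permutation test of such a ratio cannot go below 0.1.

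Contralateral left against sham right gave no call among the members by limma. None of 77 was called lower (against 0.00713% of all genes) or higher (against 0.0214%), with 9 lower and 3 higher at an unadjusted p under 0.05 (against 5.91% and 1.78% of all genes). The 3 left-side libraries were unlike each other. Their presynaptic medians against the sham right mean were -0.38 in left 1, -0.36 in left 3 and 0.12 in left 5. Pclo had 4.98, 3.90 and 11.8 FPKM in left 1, 3 and 5, against 9.49, 12.1 and 9.41 FPKM in sham right. Sv2a had 37.2, 37.3 and 70.5 FPKM in the left-side libraries and 63.1, 65.8 and 63.5 FPKM in sham right. In both, left 1 and 3 lay below the sham range, and left 5 lay inside or above it. Snap25, at 359, 439 and 450.4 FPKM, and Cplx1, at 214, 217 and 232 FPKM, did not: left 3 and 5 of Snap25 were alike, and all 3 of Cplx1 lay within the sham range.

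Without left 5, 13 members were called lower and 3 higher against sham right. Over all genes tested, that fit called 7.43% lower and 1.23% higher. The largest of these differences were Pclo at -1.06 (adjusted p = 0.00659, limma) and Stxbp5l, which encodes tomosyn-2, at -0.92 (0.00757), with Vamp8 at 0.99 in the other direction (0.00757). Across the 77 members, the difference of a library from the sham right mean had a Spearman correlation with exon length of -0.31 in left 1, -0.48 in left 3 and 0.28 in left 5. Its part in the split was not tested. The libraries share sham right as the zero, and single sham right libraries reached -0.31 to 0.36 by the same measure.

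Lists of other synaptic genes gave 2 calls in all, 1 higher at 4 h and 1 lower at 3 days. In these directions 1.32% and 0.457% of all genes tested were called. Over all genes tested, 16.5%, 8.58%, 16.3% and 19.4% had an unadjusted p under 0.05 at 4 h, 1 day, 3 days and 10 days. Of 15 tested genes of vesicle endocytosis, none was called at any time by limma, and 3, 1, 0 and 2 had an unadjusted p under 0.05 at 4 h, 1 day, 3 days and 10 days. Of 14 tested postsynaptic density genes, none was called, with 1, 1, 0 and 4 at an unadjusted p under 0.05. Of 9 tested genes of dense core granules, none was called, with 1 at an unadjusted p under 0.05 at each time. Of 12 tested genes of transmitter filling, Slc17a6, which encodes the vesicular glutamate transporter VGLUT2, fell at 3 days by 1.17 on the log2 scale (adjusted p = 0.0439, limma). Of 27 further vesicle and priming genes, Rimbp2, which encodes a RIM-binding protein of the active zone, rose at 4 h by 1.24 (adjusted p = 0.0134). The medians of these 5 lists at 10 days lay between -0.31 and -0.14, and between -0.18 and -0.05 without 10 day library 5.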

How the data were processed

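RNA of 18 micro-punches was measured by total RNA sequencing, in 6 groups of 3. Build GRCm38 and the tools StringTie 1.3.4d, HISAT2 2.1.0 and Trimmomatic 0.36 are named, per the submitters' processing notes; annotation, strand handling and filters are not given in the sources used here. The authors deposited FPKM values, with no further scaling stated. The copy used ends inside a line after 34921 complete gene entries. Symbols were read from it, and coordinates, exon lengths and chromosomes from GENCODE release M21 (34837 entries matched). The members and lists were chosen with earlier results of these data known.

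Genes with at least 1 FPKM in 3 libraries were fitted as log2(FPKM + 1) with limma 3.58.1, using 1 mean for each of the 6 groups, trend and robust moderation and no covariate (R 4.3.3 with the data.table package, version 1.17.8, and statmod 1.5.0). The fit was run on simulated data with 1 spread per gene for all libraries, so libraries unlike others of their group were not covered. Group tables and figures used Python, with NumPy, pandas, SciPy and matplotlib. Of 23 members that share exon bases with another gene, none was called at a single time or in a step, 1 (Syt6) by the F-test and 5 in contralateral left without left 5, Pclo among them. A symbol held by 2 entries (Itgam, Dlg2) was counted once, by the more abundant. Values were named for a fixed panel, the 5 largest called rises and falls at each time, members called in a step and, in the other lists, called genes; Syt4, Syt17, Rab3c before 10 days, Unc13b and Stxbp5l were named after their values were seen. Values of 2 panel members are not reported here. Alternatives covered the pseudocount, filter, scaling, block, samples, control and left-out libraries.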

Additional observations from a re-analysis of the deposited data

Results flagged for a closer look

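Rab32 and Rab31 were the members whose effect against sham right differed between neighbouring times by a test of the difference itself. For Rab32 the 3 day effect exceeded the 1 day effect by 1.39 on the log2 scale, with 6.72, 3.72 and 4.96 FPKM at 3 days and 1.17, 1.26 and 1.45 FPKM at 1 day. For Rab31 the difference was 0.56, with 34.4, 30.3 and 36.6 FPKM at 3 days and 21.4, 21.1 and 25.1 FPKM at 1 day. Rab31 was also high at 4 h, at 29.2, 28.6 and 38.8 FPKM, so its low 1 day level lies between 2 higher times.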

How the results depend on the processing

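Main counts of called members were 1 lower and 1 higher at 4 h, 1 and 0 at 1 day, 1 and 4 at 3 days, 2 and 6 at 10 days, and 0 and 0 in contralateral left, with 0, 2 and 0 in the 3 steps. Rab32 at 3 and 10 days and in the step at 3 days, Unc13c at 3 days and Snap23 at 10 days were called in every alternative run. Without a filter on low values there were 0 lower and 0 higher at 4 h, 0 lower at 1 day, 0 lower at 10 days and 1 in the step at 3 days. Median-ratio scaling gave 3 higher at 4 h, 2 higher and 2 lower at 3 days and 1 lower at 10 days. A fit of the 2 groups alone gave 2 higher at 4 h, 8 higher and 3 lower at 3 days, and 3 higher and 1 lower at 10 days. With contralateral left as the control there were 0 lower at 4 h, 2 higher and 2 lower at 3 days and 1 lower at 10 days, and Rab3c at 10 days changed sign to 0.0238 (adjusted p = 0.936). With both controls together there were 2 lower at 3 days. Without contralateral left 5 and 10 day library 5 there were 7 higher and 4 lower at 4 h, 3 lower at 3 days, 5 higher and 21 lower in contralateral left, and 4 and 7 in the steps at 1 and 3 days. The cause of these changes was not tested.

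Fits without 1 library gave 0 to 1 lower and 0 to 1 higher at 4 h, 0 to 1 lower at 1 day, 1 lower and 1 to 4 higher at 3 days, 0 to 3 lower and 3 to 5 higher at 10 days, 0 to 13 lower and 0 to 3 higher in contralateral left, and 0 to 1, 1 to 2 and 0 in the steps.

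With the replicate block there were 0 lower and 0 higher at 4 h, 0 lower at 1 day, 2 higher at 3 days and 1 in the step at 3 days. Same-numbered libraries deviated from their group means with correlations of -0.227 to 0.409 across genes, and the labels tie no number to a shared animal, litter or day. Sham right and contralateral left share 2 numbers, with correlations of 0.219 and 0.102, and whether those are pairs is not stated.

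Read totals were not used here, and 9 members were too low to test.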

Other observations

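Some members outside the main comparisons of the text had values that a reader may want to see. Syt6, a synaptotagmin of low level, was the presynaptic member with the highest difference in each of the 3 libraries at 10 days, at 0.31, 0.30 and 0.50 on the log2 scale, and its log2 fold change of 0.37 was not called (adjusted p = 0.133, limma). Stx16, a Golgi syntaxin, ranged widely within groups and had the largest difference of any member in contralateral left, at -1.08 (adjusted p = 0.563). Rab36, Stx6, Syt17 and Syt6 were called by the F-test over the 4 times while no single time against sham right was called, and for Rab36 the largest log2 fold change was 0.74 at 4 h (adjusted p = 0.0617).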
